A study of Mus musculus with 20 samples.

Results

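Wnt ligands and R-spondins are the secreted signals that start Wnt signalling, and 10 of their genes (Wnt2, Wnt4, Wnt5a, Wnt5b, Wnt6, Wnt9b, Wnt11, Rspo1, Rspo2 and Rspo3) were described here in mouse liver and liver tumours. Members were found as the probe sets whose single gene symbol is 1 of these names, which gave 19 of 45037 probe sets and 10 of 18193 genes. Wnt proteins bind Frizzled receptors on neighbouring cells, and in the branch that runs through beta-catenin they stop the APC complex from marking beta-catenin for destruction. R-spondins bind LGR receptors and keep the ubiquitin ligases Znrf3 and Rnf43 from removing Frizzleds, so they strengthen the signal. In the liver, endothelial cells of the central vein make Wnt2, Wnt9b and Rspo3, and the hepatocytes around that vein carry the resulting beta-catenin programme. Loss of Apc acts in the receiving cell, downstream of these ligands.

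All tissue came from male C57BL/6 mice with a conditional knockout allele of Apc, so every group shares the allele and no wild-type liver was used here. The groups of 5 samples were adenomas from mice on a phenobarbital diet (APCko_Adenoma), carcinomas from mice without the drug (APCko_Carcinoma), non-tumour liver on phenobarbital (PB_NT) and non-tumour liver without it (H2O_NT, called untreated liver below, with standard chow in the protocols). Per the protocols a single dose of 0.75 mg tamoxifen was given at 6 weeks of age, and the diet, plain or with 0.05% phenobarbital, began 1 week later and lasted 9 months. The design text of the series names the carcinogen DEN instead of tamoxifen, which was not settled, and the driver of the Cre and the deleted part of Apc are not given in the sources used here. The tumour groups differ in stage and in phenobarbital at once, and these cannot be told apart. Whether samples of a group are separate mice, or tumours and non-tumour liver share mice, is not stated in the labels. The p-values therefore measure only the spread between these samples.

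Levels are log2 expression values of an Affymetrix array, where a difference of 1 is 2-fold, and levels of different genes are not set against each other because their probes differ. The arrays had medians of 5.52 to 5.63 over all probe sets and lower quartiles averaging 4.31, which places values near 4 or 5 among the dimmer probe sets. Within a group, arrays correlated across genes at 0.969 to 0.986 in adenomas, 0.956 to 0.988 in carcinomas, 0.993 to 0.995 in phenobarbital liver and 0.986 to 0.994 in untreated liver. Apc itself, by its brightest probe set, had a level of 10.68 ± 0.17 in carcinomas and 8.84 ± 0.13 in untreated liver. In adenomas it had 9.06 ± 0.19 and in phenobarbital liver 8.54 ± 0.12 (SD, n = 5 each). Another Apc probe set averaged 10.06 in carcinomas and 7.90 in untreated liver, and 7.67 in adenomas and 7.70 in phenobarbital liver. The adenoma difference therefore depends on the probe set. Whether the Apc probes lie in the deleted part is not known, so these levels do not check the labels. The 10 measured hepatocyte markers were all lower in carcinomas, with array means of 6.55 to 10.6 in carcinomas and 13.7 to 13.9 in untreated liver, against 12.0 to 13.2 in adenomas and 13.5 to 13.6 in phenobarbital liver. Of all genes 37.6% were lower in carcinomas. Among the untreated samples, arrays 3 and 4 stood apart, with Glul (glutamine synthetase, a central vein hepatocyte gene) at 12.4 and 12.3 against 13.1 to 13.4 in the other 3, and Acta2 (smooth muscle actin) at 7.70 and 8.34 against 5.88 to 6.38.

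**Figure D1:**
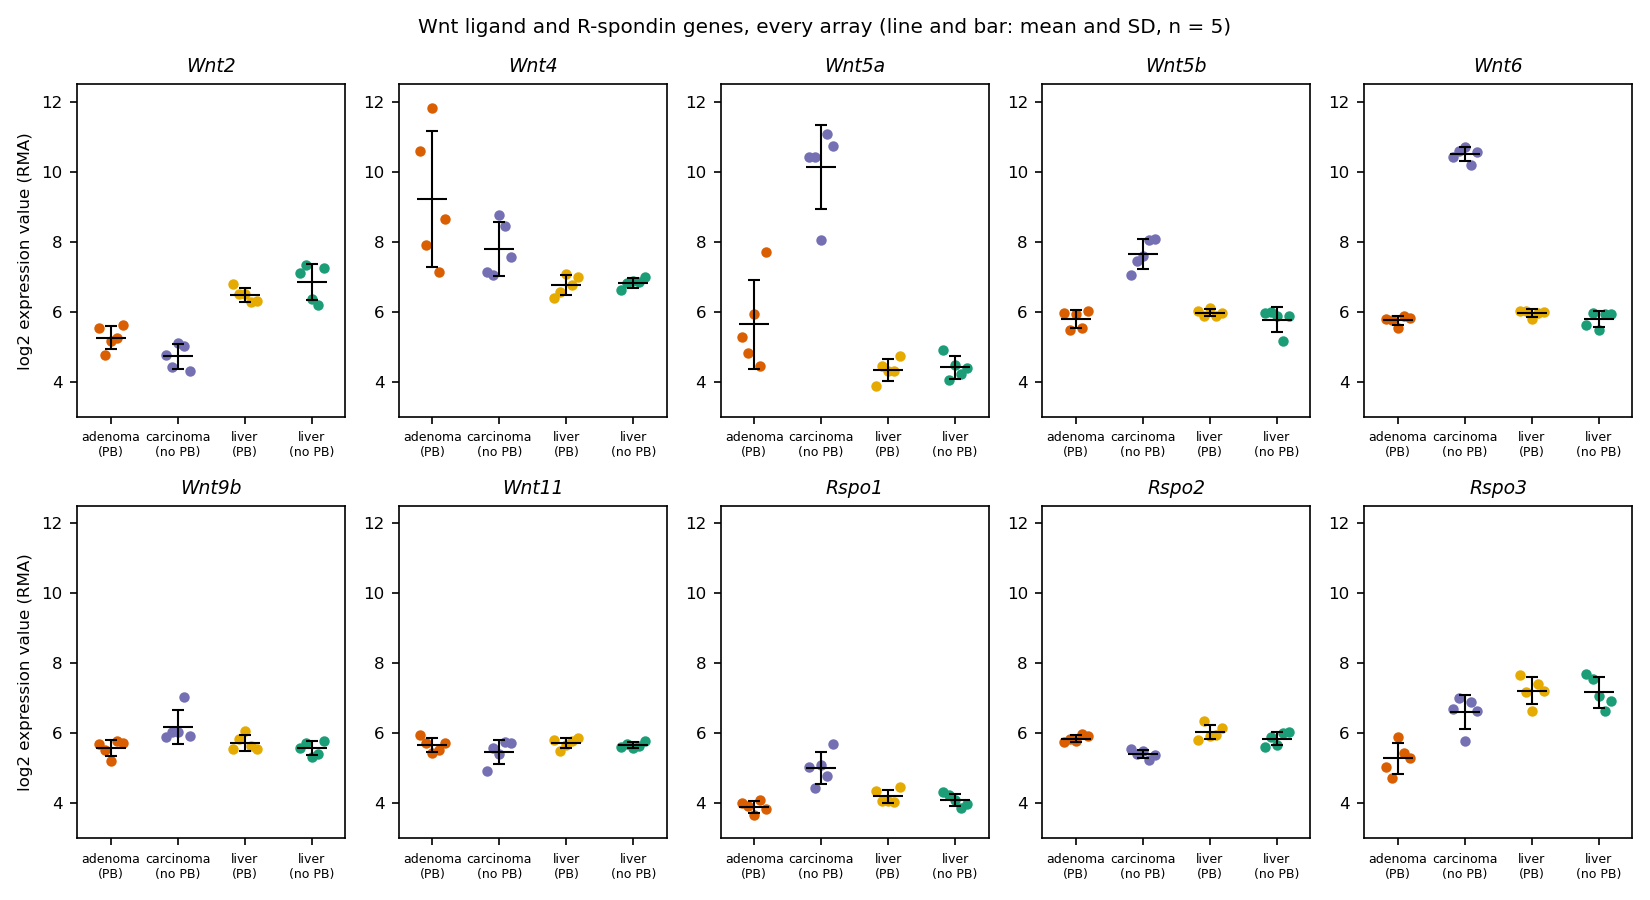
Log2 expression value (y axis) of the 10 genes in every array, with 1 point per array and the line and bar giving mean and SD of 5 arrays; groups run from adenoma and carcinoma to phenobarbital (PB) liver and untreated liver. Carcinoma points for Wnt5a, Wnt5b and Wnt6 lie above all points of untreated liver, Wnt2 points of both tumour groups lie below those of non-tumour liver, and Wnt4 is spread from 7.15 to 11.83 in adenomas.

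Promoter sequences are shown for the genes that were higher by at least 2-fold in a tumour group and have a start in the RefSeq promoter table (assembly GRCm38.p6). Wnt5a, whose rise was the largest of the 10 genes, is not in that table, nor are Rspo2 and Rspo3. So 7 of the 10 genes matched, with 10 start sites. Each window is the 250 bases before a start, read 5′ to 3′ on the strand of the gene, and capitals mark the TCF/LEF core motif CTTTGAT, the letters bound by the DNA partners of beta-catenin, which was searched on both strands (ATCAAAG on the other).
Wnt6, chr1:74771642-74771891, plus strand: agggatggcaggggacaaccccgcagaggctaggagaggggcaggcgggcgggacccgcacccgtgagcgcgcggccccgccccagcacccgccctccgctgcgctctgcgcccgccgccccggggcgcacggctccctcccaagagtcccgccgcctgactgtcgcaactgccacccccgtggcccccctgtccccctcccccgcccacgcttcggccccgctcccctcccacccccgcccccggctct
Wnt5b, start 3 of 3, chr6:119449387-119449636, minus strand: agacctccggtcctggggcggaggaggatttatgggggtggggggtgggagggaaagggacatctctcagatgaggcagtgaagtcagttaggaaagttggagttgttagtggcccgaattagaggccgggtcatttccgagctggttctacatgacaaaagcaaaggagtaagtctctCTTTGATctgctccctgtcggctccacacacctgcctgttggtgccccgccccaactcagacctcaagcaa
Wnt4, chr4:137277385-137277634, plus strand: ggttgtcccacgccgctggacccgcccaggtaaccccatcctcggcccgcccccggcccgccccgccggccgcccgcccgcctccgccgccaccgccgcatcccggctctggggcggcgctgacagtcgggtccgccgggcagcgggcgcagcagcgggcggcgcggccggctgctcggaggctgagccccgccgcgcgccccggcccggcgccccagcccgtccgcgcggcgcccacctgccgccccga
The Wnt5b window holds the motif with its first base 71 bases before the start, and of the 3 Wnt5b starts this one is shown because it is the only one with a match, while starts 1 and 2 have 0 matches. The Wnt6 window has 79.6% G and C with 28 CpG pairs and the Wnt4 window 85.2% with 44, against medians of 52.4% and 6 over 32851 windows of this length, and neither holds the motif. Among all windows 3.21% hold it, and among the 10 windows of these genes 2 do, the other being a start of Wnt11 that had the motif on the opposite strand. A match is only a description of the letters, and no match says only that they are not in this window.

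The groups address 4 questions: what differed in carcinomas against untreated liver, in adenomas against phenobarbital liver, in phenobarbital against untreated liver, and between the tumour groups. Carcinomas had 5 of the 10 genes higher and 2 lower at an adjusted p under 0.05, and adenomas had 1 higher (Wnt4) and 2 lower (Wnt2 and Rspo3). In carcinomas 68.9% of all genes tested passed, 31.4% higher and 37.6% lower, so 7 of 10 is near the background. With a change of at least 2-fold 4 of 10 passed, where 28.2% of all genes did, and 8 of 10 did not overlap with untreated liver, where 53.2% of all genes did not. In adenomas 24.6% of all genes passed, 13.4% higher and 11.2% lower, near the 3 of 10 here. With a change of at least 2-fold the same 3 of 10 passed, where 6.41% of all genes did. The same 3 of 10 did not overlap with phenobarbital liver, where 19.3% of all genes did not. The median log2 fold of the 10 genes was 0.76 in carcinomas and -0.19 in adenomas, while that of all genes was -0.12 and -0.03.

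Wnt2, an endothelial ligand of the central vein, fell in both kinds of tumour. Its level was 4.77, 4.42, 5.11, 5.02 and 4.30 in carcinomas, against 7.10, 7.33, 6.36, 6.21 and 7.24 in untreated liver. It was 5.53, 4.77, 5.16, 5.24 and 5.61 in adenomas, against 6.79, 6.50, 6.52, 6.29 and 6.32 in phenobarbital liver. Every tumour array lay below every non-tumour array of its comparison. The log2 fold was -2.12 (SE 0.22, adjusted p = 5.712e-08) in carcinomas and -1.22 (SE 0.22, 2.33-fold, adjusted p = 0.0004342) in adenomas. The fall was larger in carcinomas, with a difference of the tumour effects of 0.90 (SE 0.31, adjusted p = 0.02335). The low untreated values were those of arrays 3 and 4, and without them the carcinoma fold was -2.50 (adjusted p = 7.013e-09). Leaving out the lowest untreated values had to enlarge the fall, and the omission was chosen after seeing the data. Fewer endothelial cells and less RNA per cell cannot be told apart in bulk tissue.

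Rspo3, the R-spondin of the central vein endothelium, fell in adenomas. Adenomas had levels of 5.04, 4.72, 5.91, 5.45 and 5.31, against 7.67, 7.18, 6.65, 7.41 and 7.21 in phenobarbital liver, without overlap. The fold of -1.94 (SE 0.26, 3.84-fold, adjusted p = 2.033e-05) was larger than the spread between samples. Carcinomas had 6.68, 7.0, 5.77, 6.91 and 6.65, against 7.69, 7.55, 7.06, 6.63 and 6.93 in untreated liver, so those groups overlapped. There the log2 fold was -0.57 (SE 0.26, adjusted p = 0.05856), short of the threshold, and it passed without untreated arrays 3 and 4 (-0.79, adjusted p = 0.02725). That omission was chosen after seeing the data and took out the lowest untreated value. The adenoma effect minus the carcinoma effect was -1.37 for Rspo3 (SE 0.37, adjusted p = 0.004449). A second Rspo3 probe set stayed between 4.05 and 4.69 on every array and gave -0.08 (adjusted p = 0.6758) in adenomas, so the fall rests on the brighter probe set.

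Wnt9b, the other central vein ligand, gave small differences that its probe sets did not share. Its brighter probe set had 5.91, 6.03, 6.05, 7.05 and 5.92 in carcinomas, against 5.59, 5.74, 5.33, 5.42 and 5.79 in untreated liver. All carcinomas lay above all untreated samples, by 0.62 (SE 0.19, adjusted p = 0.006469), with carcinoma array 4 far above the rest. The other probe set had 4.90, 4.92, 4.87, 5.15 and 5.04 in carcinomas, against 5.40, 5.54, 5.28, 5.30 and 5.43 in untreated liver, a fold of -0.42 (SE 0.09, adjusted p = 0.0005341 over all probe sets) in the opposite direction. The direction for Wnt9b in carcinomas therefore depends on the probe set. Without carcinoma array 4 the brighter probe set gave 0.40 (adjusted p = 0.01316), and without untreated arrays 3 and 4 it gave 0.49 (adjusted p = 0.05979). In adenomas the folds were -0.15 (adjusted p = 0.6192) for the brighter and -0.35 (SE 0.09, adjusted p = 0.009856 over all probe sets) for the other.

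Most markers of endothelial cells were lower in carcinomas, in which Wnt2 fell, Rspo3 did not pass and Wnt9b was higher by its brighter probe set. Of 23 measured, 3 were higher and 16 lower in carcinomas, among them Clec4g and Stab2 of sinusoidal endothelium by -5.22 and -3.80, with Thbd and Flt1 higher by 3.79 and 3.51. In adenomas 3 were higher and 5 lower, with Emcn and Pecam1 at 1.24 and 1.12 and Clec4g and Ehd3 at -1.61 and -1.20. Of all genes 31.4% were higher and 37.6% lower in carcinomas, and 13.4% and 11.2% in adenomas. Summed linear intensity of the 23 genes was 3364 to 9296 in carcinomas and 7834 to 9070 in untreated liver. It was 6249 to 7437 in adenomas and 8388 to 10000 in phenobarbital liver. Their mean log2 level per array was 6.12 to 6.88 in carcinomas, below the 7.58 to 7.78 of untreated liver. In adenomas that mean was 7.53 to 7.78, against 7.68 to 7.80 in phenobarbital liver. RMA values have no true 0, so no marker is at 0, and the part of endothelial content in the Wnt2 and Rspo3 values was not tested.

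Rspo1, known for its role in ovary development, rose in carcinomas at a low level. Carcinomas had 5.04, 4.44, 5.10, 4.77 and 5.70, against 4.31, 4.24, 4.10, 3.87 and 3.98 in untreated liver, all above it. The log2 difference was 0.91 (SE 0.17, adjusted p = 0.0001037), with untreated values at or below the mean lower quartile of the arrays. Adenomas had 4.0, 3.93, 3.65, 4.09 and 3.84, against 4.36, 4.07, 4.06, 4.05 and 4.46 in phenobarbital liver, a fold of -0.30 (adjusted p = 0.2273). Rspo2, an R-spondin of limb and lung development, was lower in carcinomas, with 5.25 to 5.55 there against 5.62 to 6.04 in untreated liver. That difference was -0.43 (SE 0.11, 1.35-fold, adjusted p = 0.001583), and a second probe set gave -0.25 (adjusted p = 0.04952 over all probe sets). In adenomas Rspo2 had 5.74 to 5.97, against 5.82 to 6.35 in phenobarbital liver, and the fold of -0.19 did not pass (adjusted p = 0.2195).

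Wnt5a rose strongly in carcinomas. It is a ligand that mostly signals without beta-catenin, through Ror receptors and cell polarity. The carcinomas had 10.44, 10.43, 8.06, 11.07 and 10.75, against 4.92, 4.06, 4.48, 4.23 and 4.40 in untreated liver. The measured log2 difference was 5.73 (SE 0.53, adjusted p = 8.727e-09), with no overlap and with carcinoma array 3 well below the other 4. The untreated values lie near the mean lower quartile of the arrays, 4.31, and the table has no detection calls, so the untreated level is not shown to be above background and no linear fold is given. Adenomas had 5.29, 4.83, 5.94, 4.47 and 7.71, against 3.87, 4.46, 4.31, 4.31 and 4.75 in phenobarbital liver. Of the adenomas 4 lay above all phenobarbital liver samples and array 4 within them, and the fold of 1.31 (SE 0.53) did not pass (adjusted p = 0.07817). Leaving out adenoma array 4 brought it past the threshold (1.60, adjusted p = 0.03666). The other 3 Wnt5a probe sets gave 4.62, 4.05 and 0.81 in carcinomas, each past the test over all probe sets (adjusted p = 1.29e-08, 6.302e-08 and 0.002442), and 0.83, 0.19 and -0.09 in adenomas, none of which passed.

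Wnt6, an epithelial ligand of embryonic development, had the tightest carcinoma values among the risen genes. Carcinomas had 10.44, 10.59, 10.71, 10.19 and 10.57, against 5.63, 5.97, 5.50, 5.93 and 5.95 in untreated liver. The fold was 4.70 (SE 0.11, 26.1-fold, adjusted p = 3.97e-17), and the other probe set gave 6.33 (adjusted p = 2.225e-17 over all probe sets). Untreated values lie near the array medians of 5.52 to 5.63, and at 4.18 to 5.04 for the other probe set. The untreated level is not shown to be above background, so the 26.1-fold is only that of the measured values. Adenomas had 5.79, 5.77, 5.54, 5.88 and 5.82, against 6.03, 6.03, 5.78, 5.97 and 6.01 in phenobarbital liver, a fold of -0.21 (adjusted p = 0.1957). No adenoma came near the carcinoma level.

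Wnt5b, a close relative of Wnt5a, rose in carcinomas to a smaller extent. Its carcinoma levels were 7.07, 7.45, 7.61, 8.06 and 8.07, against 5.96, 5.98, 5.89, 5.16 and 5.89 in untreated liver, without overlap. The fold was 1.87 (SE 0.19, 3.67-fold, adjusted p = 2.734e-08), with 2.45 (adjusted p = 1.07e-09) for the other probe set. The untreated values lie near the array medians of 5.52 to 5.63, so the 3.67-fold is only that of the measured values. In adenomas the levels were 5.97, 5.48, 5.94, 5.54 and 6.02, against 6.03, 5.88, 6.12, 5.89 and 5.97 in phenobarbital liver, and the fold of -0.18 did not pass (adjusted p = 0.52). Wnt11, a ligand of cell movement in the embryo, had 4.92 to 5.75 in carcinomas and 5.59 to 5.78 in untreated liver, and 5.43 to 5.95 in adenomas and 5.50 to 5.85 in phenobarbital liver. Neither its carcinoma fold of -0.19 (adjusted p = 0.2227) nor its adenoma fold of -0.05 (adjusted p = 0.8353) passed.

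Wnt4, a ligand of kidney and ovary development, was the only 1 of the 10 genes that rose in adenomas. Adenomas had 10.61, 7.91, 11.83, 7.15 and 8.65, against 6.39, 6.58, 7.08, 6.76 and 7.01 in phenobarbital liver. Every adenoma lay above every phenobarbital liver sample, but adenoma array 4 by little and arrays 1 and 3 by far. The fold was 2.46 (SE 0.61, 5.52-fold, adjusted p = 0.005752), and the second probe set gave 1.81 (adjusted p = 0.01739 over all probe sets) with the same arrays, 8.54 and 9.53, on top. The narrower spread of the other groups enters that SE. A limma fit of only adenomas and phenobarbital liver still passed, but less clearly (adjusted p = 0.02934). Carcinomas had 7.15, 7.07, 8.77, 8.46 and 7.56, against 6.62, 6.83, 6.88, 6.84 and 7.0 in untreated liver, also without overlap. The carcinoma fold of 0.97 (SE 0.61) did not pass in the fit over all groups (adjusted p = 0.1652), where the wide adenoma spread enters the error, and passed in a fit of only those groups (adjusted p = 0.01761). Whether the tumour effects on Wnt4 differ depends on the fit. The difference was 1.50 (SE 0.87, adjusted p = 0.166) and did not pass, but it passed with array weights (2.20, adjusted p = 0.01205) and without adenoma array 4 (2.02, adjusted p = 0.03841), with 0.85 to 2.02 over all omissions of 1 array.

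**Figure D2:**
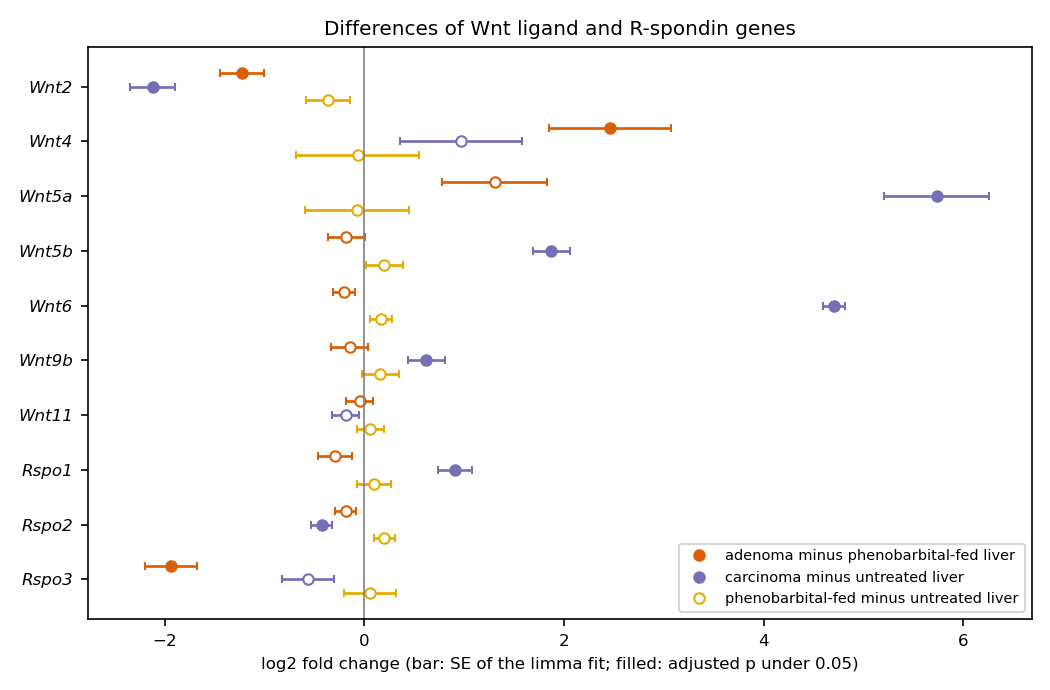
Log2 fold change (x axis, bar: SE of the limma fit over 20 arrays) of each gene in adenomas against phenobarbital (PB) liver, carcinomas against untreated liver and phenobarbital against untreated liver, filled where the adjusted p is under 0.05. Wnt5a at 5.73 and Wnt6 at 4.70 lie far right in carcinomas, Wnt4 at 2.46 lies right and Rspo3 at -1.94 left in adenomas, and no symbol of the phenobarbital comparison is filled.

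Markers of stellate cells and fibroblasts were also higher in carcinomas, in which Wnt5a, Wnt5b, Wnt6 and Rspo1 rose. Of 19 measured, 10 were higher and 3 lower there, with Acta2 at 7.20 and Col1a2 at 4.31, against Colec10 at -4.45 and Reln at -1.96. Their summed intensity was 35176 to 66805 in carcinomas, against 9301 to 16344 in untreated liver. Carcinoma array 3, the lowest for Wnt5a and Rspo3, was the highest carcinoma for Wnt6, the second highest for Rspo1 and the middle one for Wnt5b. In adenomas 4 of the 19 were higher and 7 lower, with Col1a2 at 2.08, Acta2 at 2.04, Colec10 at -3.01 and Lrat at -1.73, and a summed intensity of 5453 to 17772 against 11287 to 13034 in phenobarbital liver. The part of these cells in the ligand values was not tested. Mesothelial markers, of another cell type that can make R-spondins, gave 0 of 8 higher and 4 lower in carcinomas, and 0 higher and 2 lower in adenomas. Their summed intensity was 167 to 360 in carcinomas against 238 to 294 in untreated liver, and 247 to 422 in adenomas against 267 to 366 in phenobarbital liver. The mean log2 level of the mesothelial markers per array was 4.16 to 4.65 in carcinomas, below the 4.70 to 4.89 of untreated liver. In adenomas it was 4.62 to 4.88, against 4.69 to 5.36 in phenobarbital liver. These means lie among the dimmer values of the arrays. Macrophage markers were 4 higher and 5 lower of 13 in carcinomas and 1 higher and 4 lower in adenomas. Lymphocyte markers were 3 higher and 4 lower of 8 in carcinomas and 1 higher in adenomas, and of 6 cholangiocyte markers Krt7 and Epcam were higher in carcinomas and 1 was lower. All these marker counts stand beside 31.4% higher and 37.6% lower of all genes in carcinomas, and 13.4% and 11.2% in adenomas.

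Phenobarbital without a tumour gave no call among the ligands. Tested with limma, 0 of 10 genes passed at the adjusted threshold and 0 of 10 at an unadjusted p under 0.05, where 0.214% and 5.9% of all genes did. Folds ran from -0.36 (SE 0.22, adjusted p = 0.9447) for Wnt2 to 0.20 for Wnt5b and Rspo2 (adjusted p = 0.8987 for Rspo2), and phenobarbital and untreated liver overlapped for every one of the 10, where 4.62% of all genes did not overlap. In the fit over all groups a missed difference is bounded only loosely for Wnt4 and Wnt5a, whose fold had SEs of 0.61 and 0.53. The spread of the tumours enters these SEs. The SD of Wnt4 was 0.29 in phenobarbital and 0.14 in untreated liver, against 1.94 in adenomas and 0.775 in carcinomas. That of Wnt5a was 0.32 in both liver groups, against 1.28 in adenomas and 1.20 in carcinomas. Without untreated arrays 3 and 4 Wnt2 was at -0.74 (adjusted p = 0.3239).

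Between the tumour groups, adenomas differed from carcinomas for 9 of the 10 genes, where 62.2% of all genes passed. Of these 3 were higher in adenomas (Wnt2, Wnt4 and Rspo2) and 6 lower, where 33.6% and 28.5% of all genes were, and 6 of the 10 did not overlap, where 41.7% of all genes did not. Wnt5a stood at 5.65 ± 1.28 in adenomas and 10.15 ± 1.20 in carcinomas (SD, n = 5 each), a difference of -4.50 (SE 0.53, adjusted p = 3.232e-07). Wnt6 averaged 5.76 ± 0.13 in adenomas and 10.50 ± 0.20 in carcinomas, a difference of -4.74 (SE 0.11, adjusted p = 5.872e-17). Wnt5b was lower in adenomas by -1.86 (SE 0.19, adjusted p = 3.496e-08) and Rspo1 by -1.11 (SE 0.17, adjusted p = 1.227e-05), both without overlap. Rspo3 averaged 5.28 ± 0.45 in adenomas and 6.60 ± 0.49 in carcinomas, a difference of -1.32 (SE 0.26, adjusted p = 0.000197), with adenoma array 3 above carcinoma array 3. The second, dim Rspo3 probe set gave 0.15 (adjusted p = 0.258 over all probe sets). The weaker calls were Wnt2 at 0.54 (SE 0.22, adjusted p = 0.0415) and Wnt4 at 1.43 (SE 0.61, adjusted p = 0.04943), both with overlapping groups. The Wnt2 call was lost without carcinoma array 1, 2 or 5 or adenoma array 1, 3, 4 or 5, with values of 0.43 to 0.66 over all 10 omissions. The Wnt4 call was lost without carcinoma array 1, 2 or 5 or adenoma array 1 or 3, and the value was lowest, at 0.78, without adenoma array 3. It was also lost in a fit of only the tumour groups (adjusted p = 0.1599), with trend and robust moderation (adjusted p = 0.05421) and with averaged probe sets (1.26, adjusted p = 0.05849), and the second Wnt4 probe set gave 1.09 (adjusted p = 0.07781 over all probe sets). Rspo2 was higher in adenomas by 0.44 (adjusted p = 0.001495). Wnt9b, at -0.61 (adjusted p = 0.008087), again changed direction with its other probe set, which gave 0.30 (adjusted p = 0.009043 over all probe sets).

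The difference between the tumour effects, each against its own non-tumour liver, passed for 7 of the 10 genes, where 46.6% of all genes passed, 23.3% in each direction. It was -4.91 (SE 0.16, adjusted p = 2.263e-14) for Wnt6, -4.43 (SE 0.74, adjusted p = 5.675e-05) for Wnt5a and -2.06 (SE 0.26, adjusted p = 2.082e-06) for Wnt5b. These genes rose in carcinomas, while their adenoma folds of -0.21, 1.31 and -0.18 did not pass in the fit over all groups. Rspo1 had a difference of -1.21 (SE 0.24, adjusted p = 0.0003558). Wnt9b, also among the 7, passed by its brighter probe set at -0.76 (adjusted p = 0.02206), and its other probe set gave 0.07 (adjusted p = 0.7135 over all probe sets). This comparison shares its tumour samples with the direct one above.

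**Figure D3:**
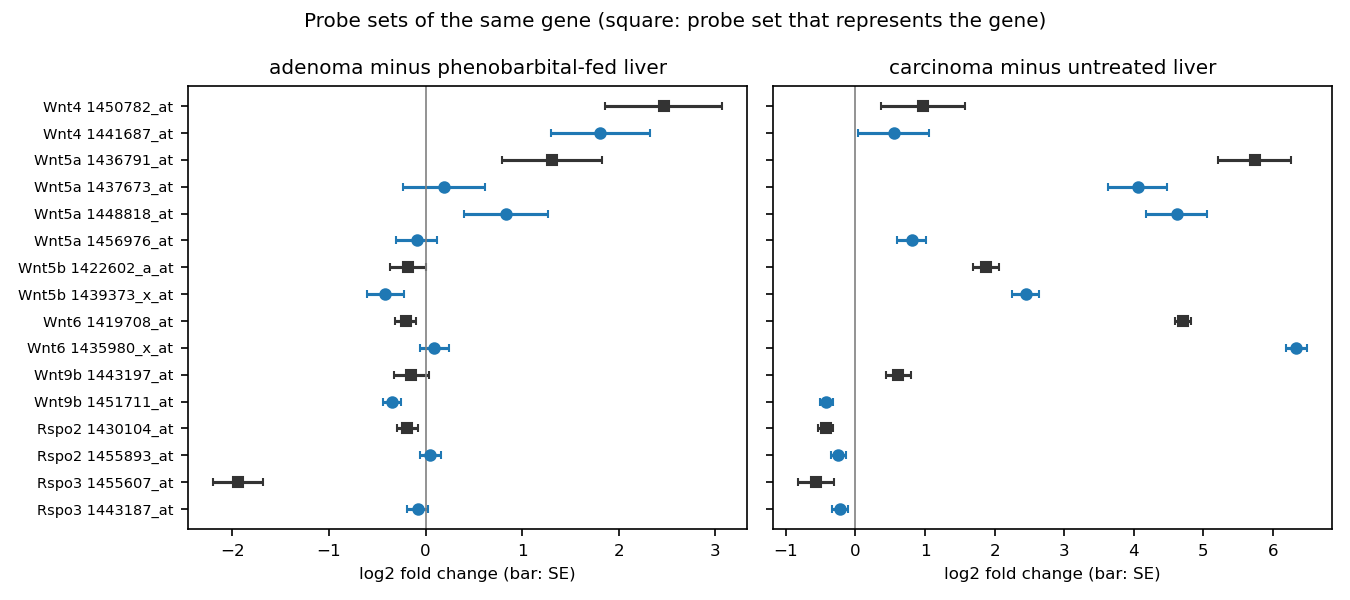
Log2 fold change (x axis, bar: SE) of each probe set of the 7 genes with more than 1, in adenomas against phenobarbital-fed liver and in carcinomas against untreated liver, with a square for the probe set that represents the gene. Probe sets of Wnt4, Wnt5a, Wnt5b, Wnt6 and Rspo2 lie on the same side of 0 in carcinomas, while those of Wnt9b lie at 0.62 and -0.42 and the second Rspo3 probe set lies near 0 in adenomas.

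Other genes of the pathway were counted over lists made with earlier results known. The background for these counts is the share of all genes passing, 68.9% in carcinomas and 24.6% in adenomas. Of 13 genes, the other Wnts and Rspo4, 3 were higher and 5 lower in carcinomas, and in adenomas 0 passed limma's test after adjustment and 1 at an unadjusted p under 0.05. Wnt10a was at 9.73 in carcinomas and 5.02 in untreated liver (log2 fold 4.72, SE 0.22, adjusted p = 3.021e-13). Wnt9a was at 5.44, 9.05, 9.90, 7.36 and 8.88 in carcinomas, against 5.20 to 5.69 in untreated liver, so carcinoma array 1 lay inside the untreated range. Its fold was 2.64 (SE 0.52, adjusted p = 0.0001814).

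Genes that acylate, export, carry or release Wnt proteins were mostly higher in carcinomas, with 7 of 9 higher and 1 lower. Of all genes 31.4% were higher and 37.6% lower there. Wls, which carries Wnts to the cell surface, had 10.35, 10.28, 8.35, 10.77 and 10.27 in carcinomas, against 5.47 to 6.39 in untreated liver, a fold of 4.21 (adjusted p = 1.481e-09). Carcinoma array 3 was the lowest for Wls as for Wnt5a. Notum, an enzyme that removes the lipid from Wnts and so inactivates them, had 11.8 to 12.9 in carcinomas against 7.15 to 8.0 in untreated liver, a fold of 4.57 (adjusted p = 4.147e-13). In adenomas 2 were higher and 2 lower. Notum was higher by 1.45 (adjusted p = 6.164e-05), and the glypican gene Gpc3 by 2.41 (adjusted p = 0.003983), with 4.97, 7.62, 8.54, 9.98 and 8.50 in adenomas against 5.01 to 5.86 in phenobarbital liver, so adenoma array 1 was not above that range. Reck, a membrane protein that helps present Wnt7 ligands, fell to 4.31 to 5.82 in adenomas, against 7.50 to 8.61 in phenobarbital liver (log2 fold -2.55, adjusted p = 7.255e-06), and Porcn, the acylating enzyme, gave -0.43 (adjusted p = 0.03383).

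**Figure D4:**
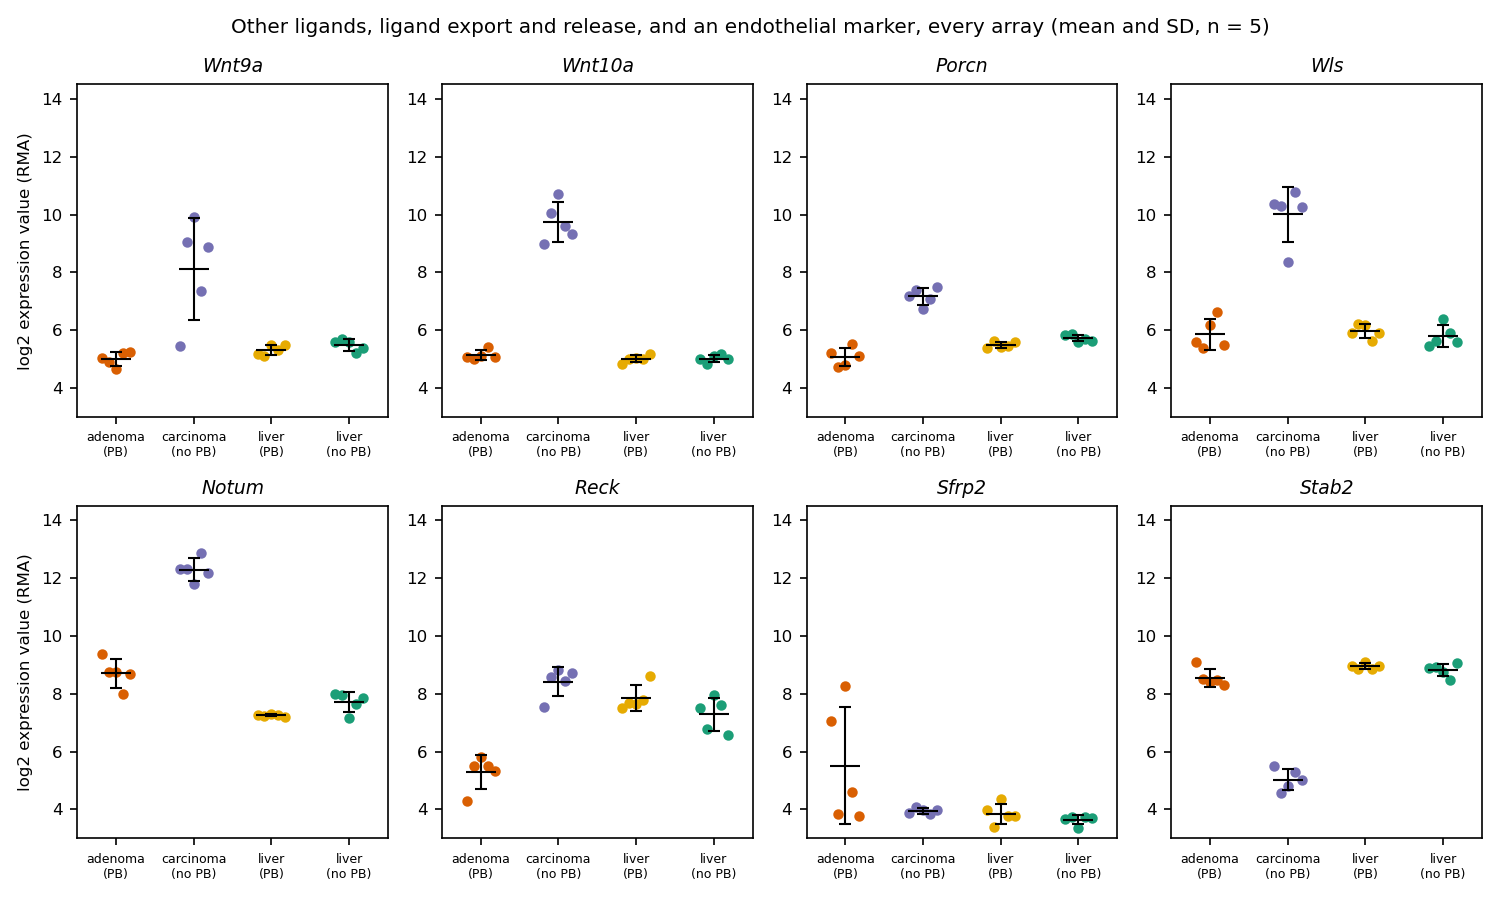
Log2 expression value (y axis) in every array of Wnt9a, Wnt10a, Porcn, Wls, Notum, Reck, Sfrp2 and the endothelial marker Stab2, with mean and SD of 5 arrays per group, from adenoma and carcinoma to phenobarbital (PB) liver and untreated liver. Wnt10a, Wls and Notum lie higher in carcinomas than in untreated liver, Reck is lowest in adenomas, 2 adenomas stand out for Sfrp2, and Stab2 lies at 4.55 to 5.49 in carcinomas.

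Secreted inhibitors were 6 higher and 4 lower of 16 in carcinomas, led by Wif1 at 10.37 and Apcdd1 at 7.69. Of all genes 31.4% were higher and 37.6% lower in carcinomas, and 13.4% and 11.2% in adenomas. In adenomas 2 of 16 were higher, Sfrp2 by 1.66 (adjusted p = 0.04949) and Dkk3 by 1.16 (adjusted p = 0.00404). Sfrp2 had 7.07, 3.84, 8.26, 4.61 and 3.79 in adenomas, against 3.40 to 4.35 in phenobarbital liver, and adenoma arrays 1 and 3 are also those highest for Wnt4. Frizzleds and co-receptors were 7 higher and 5 lower of 16 in carcinomas, with Fzd10 at 3.88, Ror1 at 3.71, Fzd5 at -3.0 and Fzd8 at -1.95. In adenomas 1 of 16 passed, Fzd8 at -0.67. Receptors and ubiquitin ligases that serve R-spondins were 3 higher and 2 lower of 6 in carcinomas (Znrf3 3.11, Rnf43 3.0, Sdc4 -1.96, Lgr4 -1.77), and 3 higher of 6 in adenomas, with Lgr5 at 1.71 and Znrf3 at 1.41. Lgr5, Znrf3 and Rnf43 are also targets of beta-catenin itself. Of 14 measured beta-catenin feedback and pericentral target genes, 8 were higher and 6 lower in carcinomas, with Nkd1 at 7.39 and Sp5 at 5.59 against Cyp1a2 at -5.14 and Rgn at -5.01, and 9 were higher and 0 lower in adenomas, with Slc1a2 at 3.20 and Nkd1 at 3.04. In phenobarbital liver 1 of the 14 was higher, the ammonium transporter Rhbg at 1.28 (adjusted p = 0.0117), where 0.214% of all genes passed. Median log2 folds in carcinomas were 0.93 for these targets, 1.45 for the acylation and release genes, 0.35 for the inhibitors, 0.13 for the Frizzleds and co-receptors, 1.07 for the R-spondin receptors and ligases and -0.21 for the other Wnts, where the median of all genes was -0.12. In adenomas they were 1.53 for the targets and 0.45 for the R-spondin receptors and ligases, where the median of all genes was -0.03. The other adenoma medians lay near that of all genes. They were -0.02 for the acylation and release genes, -0.04 for the inhibitors, -0.13 for the Frizzleds and co-receptors and -0.07 for the other Wnts.

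As a description, the 3 genes most like each ligand were taken by Pearson correlation over the 20 arrays, among 6393 genes whose group means spanned at least 1 log2 unit. All arrays of the 4 groups enter, so the values mostly follow the difference between groups. Wnt6 was most like Tbx4, Pitx1 and Hoxd8, all homeobox or T-box transcription factors of the embryo, at 0.998, 0.996 and 0.996. Wnt5a was most like Lmo7 and the Wnt inhibitor Dkk2 at 0.98 each, with Dlg5 at 0.97, and Wnt5b like Slc26a4 at 0.97 and Olfm1 and the receptor Fzd2 at 0.96 each. For Wnt2 the 3 were Tspan33, Nars2 and Slc22a7 at 0.95 each, and for Rspo3 they were Tiam2 and Gas1 at 0.92 and Sfxn1 at 0.89. Wnt4 was most like Sfrp2 and Itpr3 at 0.87 and Nucb2 at 0.85, and Rspo1 like Chd6 at 0.90, Smap2 at 0.89 and Plekhb2 at 0.88. Wnt9b, Wnt11 and Rspo2 spanned less than 1 log2 unit and were not compared this way.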

How the data were processed

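Per the labels' protocols, Trizol was used to extract liver RNA, which was biotin-labelled with 3′IVT Express and read on Affymetrix arrays. The authors deposited log2 values, 1 per probe set and array, and the submitters' processing notes name RMA, without a version. RMA makes the distributions of arrays alike, so a shift of all genes would be removed, and folds of dim genes shrink. Precision is limited by the number of arrays.

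Of 45037 probe sets, 34945 had a single symbol in the platform annotation (34741 matched RefSeq, GRCm38.p6, by Entrez number), 932 had several and 9160 none. For a gene with several, those ending in _x_at were dropped where another exists and the brightest on average stood for the gene. All 18193 genes went through limma 3.58.1 under R 4.3.3 (lmFit, eBayes, two-sided, 1 fit over 4 groups, 16 residual and 3.22 prior degrees of freedom) with Benjamini-Hochberg adjustment over all genes and a threshold of 0.05; SE is that of the fit. A second fit over all probe sets tested each of the 19. The script was tested on simulated data. Python 3.11.15, pandas 2.3.3 and matplotlib 3.10.9 were used.

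The members, the marker and pathway lists, the rules and the tests were chosen with earlier results of these data known. Text names all 10 members, at most 2 higher and 2 lower called genes with the largest fold per other list (Glul, and Porcn in the plot, were chosen after their values were seen), and the 3 genes most alike. Same-numbered samples did not deviate together (30 pairs, r from -0.112 to 0.133, 1 above 0.1), so no pairing by number was seen. Differently numbered samples were not compared, so shared mice are not excluded. The targeted gene Apc is named as a check. Alternatives were centring, quantile normalization, a filter on dim probe sets (12599 genes and 9 members kept, without Rspo1), averaging a gene's probe sets, trend and robust moderation, array weights, the replicate number as a block, only the groups compared, each array left out and, chosen after seeing the data, no untreated arrays 3 and 4.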

Additional observations from a re-analysis of the deposited data

Results flagged for a closer look

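Values that stood far from the other 4 of their group, by a gap to the nearest value over 0.71 of the group's range, were found for 5 combinations of gene and group. Chance alone gives about 1 in 20 groups. Wnt5a was lowest in carcinoma array 3 at 8.06, with the next at 10.43. Rspo3 was lowest in the same array at 5.77, with the next at 6.65. Wnt9b was highest in carcinoma array 4 at 7.05, with the next at 6.05. Wnt6 was lowest in phenobarbital liver array 3 at 5.78, with the next at 5.97. Wnt5b was lowest in untreated array 4 at 5.16, with the next at 5.89.

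The effects of the tumour kinds, each against its own non-tumour liver, differed by the interaction test for 7 genes. The adenoma effect minus the carcinoma effect was 0.90 for Wnt2 (adjusted p = 0.02335), -4.43 for Wnt5a (adjusted p = 5.675e-05), -2.06 for Wnt5b (adjusted p = 2.082e-06) and -4.91 for Wnt6 (adjusted p = 2.263e-14). It was -0.76 for Wnt9b (adjusted p = 0.02206), -1.21 for Rspo1 (adjusted p = 0.0003558) and -1.37 for Rspo3 (adjusted p = 0.004449). The second, dim Rspo3 probe set gave 0.14 (adjusted p = 0.5051 over all probe sets). The Wnt9b value is that of the brighter probe set, while the other probe set gave 0.07 for the same difference (adjusted p = 0.7135 over all probe sets). The Wnt9b call was also lost with averaged probe sets (-0.35, adjusted p = 0.09969) and without untreated arrays 3 and 4 (-0.63, adjusted p = 0.08521). Stage and phenobarbital cannot be told apart in these differences.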

How the results depend on the processing

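Of 1015 combinations of a gene, a comparison and an alternative, 971 kept direction and side of the threshold, 21 lost the call, 13 gained it and 10 changed sign. In carcinomas the calls of Wnt2, Wnt5a, Wnt5b, Wnt6, Rspo1 and Rspo2 held under every alternative run, although the mean of all Wnt5a probe sets gave 3.80 in place of 5.73. In adenomas those of Wnt2, Wnt4 and Rspo3 held, with Rspo3 at -1.01 in place of -1.94 under the mean of all probe sets, which takes in the dim one. Wnt9b in carcinomas lost its call under that mean (0.10, adjusted p = 0.4633). Rspo3 in carcinomas gained a call with centring (-0.63, adjusted p = 0.03692), quantile normalization (-0.79, adjusted p = 0.01005), the mean of probe sets (-0.39, adjusted p = 0.01182) and without untreated array 4, carcinoma array 2 or carcinoma array 4 (-0.70 to -0.65). Wnt5a in adenomas passed with array weights (1.38, adjusted p = 0.01252), so members higher were 2 with array weights and 1 to 2 with each array left out. For adenomas minus carcinomas, members higher were 1 to 3 with each array left out. For the difference of tumour effects, members higher were 2 with array weights and with averaged probe sets, and 1 to 2 with each array left out. Genes called for phenobarbital were 205 with array weights, 265 with only the groups compared and 23 to 38 with each array left out, in place of 39; the cause was not tested. Sign changed, with no call in any case, for Wnt11 in adenomas (-0.12 to 0.013 with each array left out) and in the difference of tumour effects (-0.0031 to 0.20). For phenobarbital it changed for Wnt4 (-0.15 to 0.023), Wnt5a (-0.18 to 0.0502, and 0.10 under the mean of probe sets) and Rspo3 (-0.0818 to 0.20, and -0.17 without untreated arrays 3 and 4). Whether the replicate numbers pair the samples is not stated in the labels. With them as a replicate block, genes called were 12415 in carcinomas in place of 12544, 4312 in adenomas in place of 4470, 39 in both for phenobarbital, 11180 between tumours in place of 11308 and 8309 for the difference of effects in place of 8477, and Wnt2 between tumours gave 0.54 (adjusted p = 0.05553). Wnt11, Wnt9b, Rspo1 and Rspo2, and the untreated levels of Wnt5a, Wnt5b and Wnt6, lie near or below the median of the arrays. There signal over background limits what can be seen.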
